A study of Mus musculus with 8 samples.

Results

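The 47 genes described here encode parts of the contractile machinery: myosin heavy and light chains, actins, tropomyosins, troponins, calponins, transgelins, alpha-actinins, sarcomere scaffold proteins and calcium channels of muscle, with the cardiac peptide hormone gene Nppa. They were chosen by a pattern of gene symbols in the array's gene annotation, with earlier results of these data known. They are all genes of these families with a value on each of 8 microarrays, out of 11597 genes measured that way. Of 51 genes whose symbols belong to the families, Mybpc2, Myoz1, Tnnc1 and Tnnt3 were missing on at least 1 array and are not counted. By their known roles the 47 were set apart as 9 cardiac muscle genes, 9 smooth muscle genes, 12 genes of skeletal or of striated muscle in general, and 17 genes of non-muscle cells or of broad expression.

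RNA came from lung interstitial leukocytes, obtained by digesting minced lungs for 2 hours and separating the cells on a Percoll density gradient, after the heart had been cut away. The 4 groups of 2 arrays were RagKO mice given silica, RagKO mice given saline, WT mice given silica and WT mice given saline. RagKO stands for Rag1-/- mice, which lack mature T and B cells and were also kept depleted of natural killer cells by repeated injections of 300 µg of an antibody against NK1.1. WT stands for wild-type C57Bl/6 mice, for which the protocol describes no antibody. All mice were 6 to 8 weeks old and received 25 µl of saline into the nose weekly for 4 weeks, with 1 mg of crystalline silica per dose in the silica groups. A strain for the Rag1-/- mice is not given in the sources used here, so genotype, natural killer cell depletion and any difference in strain cannot be told apart. Values are log2 ratios of leukocyte RNA to a universal mouse reference RNA on the same array, so a gene is compared only with itself across arrays. The labels number 2 biological replicates in each group and do not say how many mice each stands for. That number of arrays limits the precision of every value.

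In muscle, myosin heavy chains carry light chains and pull on actin filaments. In striated muscle the filaments are ordered into sarcomeres, and troponin on tropomyosin lets calcium switch contraction on. In smooth muscle, myosin light chain kinase switches it on by phosphorylating the regulatory light chain. Non-muscle cells, leukocytes included, use related isoforms of the same proteins for movement and shape. The lung holds smooth muscle around its airways and vessels, and in mice the walls of the pulmonary veins also carry cardiac muscle cells. Many muscle genes and some cytoskeletal genes are known targets of serum response factor, which binds a DNA element called the CArG box.

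Promoters were read from RefSeq (GRCm38.p6) as the 250 bases before the annotated transcription start. A promoter was found for 39 of the 47 genes, and not for Actg2, Actn3, Myh11, Mylk2, Myom2, Ryr3, Tagln and Tnni2. A CArG box in its strict form, which reads the same on either strand, stood in the window of 9 of the 39 (23.1%), against 439 of 27025 genes in the table (1.62%, or 1.47% of its 32851 promoters). These were Myl7, Actc1 and Myl3 of the cardiac genes, Myl9 of the smooth muscle genes, Acta1 and Myom1 of the striated genes, and Actg1, Cnn2 and Myl6 of the non-muscle genes. The MCAT element, searched as CATTCC on either strand, was found for 12 of the 39 (30.8%) and overlapped a CArG box in none of them, against 14.4% of all genes and 12.6% of all promoters. A MEF2 box was found for 3 (Mybpc3, Myh8 and Myom3), against 3.42% of all genes and 2.92% of promoters. Stretches from 7 of the CArG promoters are shown because their genes moved in different directions, as described below. Each is given 5′ to 3′ on the gene's own strand, ends before the transcription start, and has the box in capitals.
Myl7 (chr11:5898789-5898888, minus strand): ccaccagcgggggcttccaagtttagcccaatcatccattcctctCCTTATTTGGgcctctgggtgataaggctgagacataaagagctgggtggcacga
Actc1 (chr2:114052876-114052967, minus strand): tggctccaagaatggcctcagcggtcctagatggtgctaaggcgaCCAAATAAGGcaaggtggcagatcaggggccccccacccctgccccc
Myl3 (chr9:110763548-110763647, plus strand): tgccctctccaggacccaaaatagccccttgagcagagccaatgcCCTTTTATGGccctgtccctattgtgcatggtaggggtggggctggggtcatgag
Myl9 (chr2:156775258-156775357, plus strand): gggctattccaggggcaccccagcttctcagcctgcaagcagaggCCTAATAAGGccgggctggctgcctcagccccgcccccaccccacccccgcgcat
Acta1 (chr8:123894794-123894893, minus strand): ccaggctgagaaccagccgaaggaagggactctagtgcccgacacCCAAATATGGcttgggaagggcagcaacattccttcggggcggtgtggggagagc
Actg1 (chr11:120348531-120348630, minus strand): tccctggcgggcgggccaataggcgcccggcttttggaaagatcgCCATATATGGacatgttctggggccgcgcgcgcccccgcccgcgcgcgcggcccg
Cnn2 (chr10:79988499-79988598, plus strand): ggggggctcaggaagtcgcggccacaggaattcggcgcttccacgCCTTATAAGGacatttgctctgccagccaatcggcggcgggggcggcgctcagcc
The box began 61 bases before the start in Myl7, 47 in Actc1, 85 in Myl3, 161 in Myl9, 73 in Acta1, 90 in Actg1 and 56 in Cnn2. A match describes the letters only and shows no binding.

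Some properties of the arrays as a whole touch every result below. The 2 arrays of a group correlated across genes with r between 0.9795 and 0.9904. The mean log2 ratio of 8 general leukocyte markers was 2.75 and 2.68 in RagKO silica, 2.41 and 2.26 in RagKO saline, 3.04 and 2.87 in WT silica and 3.30 and 3.28 in WT saline. Of the 8, Laptm5 was the lowest in RagKO saline, at 0.04 and -0.04, so that it did not stand above the reference there. Its genotype differences were the largest of the 8, -4.86 after saline and -2.75 after silica. After saline 1 of the 8 was called higher in RagKO (Cd53, 0.99) and 5 lower, against 37% and 29.2% of all genes. After silica 2 were higher (Cd53, 1.05, and Tyrobp, 0.72) and 2 lower, against 33.7% and 26.4%. The genotype gap of the mean thus leans on Laptm5. Transcripts of lung epithelium, endothelium and fibroblasts were measured in the same RNA. The probe for 28S ribosomal RNA, Rn28s1, had log2 ratios of 0.86 and 0.59 in RagKO silica, 2.43 and 2.08 in RagKO saline, 2.17 and 2.45 in WT silica and 3.67 and 3.71 in WT saline. The sex-linked transcripts Xist and Eif2s3y differed between the RagKO silica arrays (Xist -1.87 and 1.87, Eif2s3y 2.42 and -2.22). They also differed between the WT groups: Eif2s3y read 0.34 and 1.05 in WT silica and 2.32 and 2.27 in WT saline, Kdm5d -0.56 and -0.15 in WT silica and 0.56 and 0.42 in WT saline, and Xist 0.54 and 0.23 in WT silica and -0.04 and -0.18 in WT saline. In RagKO saline, Xist read -1.59 and -1.72 and Kdm5d -0.43 and -0.19, both below WT saline, while Eif2s3y read 2.9 and 2.6. These shifts run along the WT silica comparison and the genotype comparison after saline. Their part in the silica effects in WT and in the genotype differences was not tested. Leaving out either RagKO silica array is among the alternatives given with the results. Because the cells were measured mixed, fewer cells of a type and less RNA per cell cannot be told apart.

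Counted over the whole set, more contractile genes were higher than lower in RagKO against WT leukocytes after saline, more fell than rose with silica in RagKO mice, and more rose than fell with silica in WT mice. For either silica effect a large share of the members did not pass, 23 of 47 in RagKO and 32 of 47 in WT. Each comparison was tested with limma across all 11597 genes at a Benjamini-Hochberg adjusted p below 0.05. After silica, 17 of the 47 were higher and 11 lower in RagKO than in WT, against 33.7% and 26.4% of all genes (60.1% in either direction). After saline, 27 were higher and 8 lower, against 37% and 29.2% (66.2% in either direction). The genotype shares of the members after silica were thus near those of all genes. Silica in RagKO mice raised 5 members and lowered 19, against 16.8% and 15.9% of all genes (32.7% in either direction). Silica in WT mice raised 14 and lowered 1, against 11.5% and 8.21% (19.7% in either direction). After quantile normalization these WT counts were 13 and 3. The 14 dropped to 8 without either WT saline array and to 9 without WT silica replicate 1. The RagKO silica effect was higher than the WT silica effect for 4 members and lower for 18, against 11% and 12.3% (23.3% in either direction). The 4 dropped to 0 without WT saline replicate 1, to 1 without WT saline replicate 2 or either WT silica array, and to 2 without RagKO saline replicate 1 or RagKO silica replicate 1. The genotype and silica comparisons share arrays, so these counts are not independent of each other. The silica effects in RagKO and in WT mice share none, and of the 47 members 6 fell in RagKO and rose in WT, 2 rose in both and 1 fell in both. Another 12 fell in RagKO and 3 rose in RagKO without a call in WT, 6 rose in WT without a call in RagKO, and 17 passed in neither. Such joint calls were not counted over all genes, so how usual they are is not known here.

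Smooth muscle genes were higher in RagKO leukocytes throughout. All 9 were higher in RagKO than in WT after silica (median log2 difference 1.12, against 0.07 over all genes) and 8 of 9 after saline (median 2.41, against 0.10). Silica lowered 6 of 9 in RagKO mice (median -0.75, against -0.03 over all genes) and raised 6 of 9 in WT mice (median 0.46, against -0.01). Cnn1, Myh11, Myl9, Tagln and Tpm2 belonged to both sets of 6, an overlap that was not counted over all genes. Of all genes, 33.7% were higher in RagKO after silica and 37% after saline. Silica lowered 15.9% of all genes in RagKO and raised 11.5% in WT. Acta2, Cnn1, Myh11, Myl9, Mylk, Tagln and Tpm2 had their lowest mean in WT saline and their highest in RagKO saline, with Mylk overlapping between its RagKO groups. Actg2 and Des did not follow this order.

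Myh11, the myosin heavy chain of smooth muscle, had log2 ratios of 4.15 and 3.91 in RagKO silica, 4.77 and 4.84 in RagKO saline, 2.93 and 3.04 in WT silica and 1.73 and 1.83 in WT saline. None of the 4 groups overlapped. It fell with silica by 0.77 in RagKO (SE 0.12, limma adjusted p = 0.00113) and rose by 1.20 in WT (2.30-fold, SE 0.12, adjusted p = 0.000217). The difference between the silica effects was -1.97 (SE 0.17, adjusted p = 9.92e-05). Tagln, which encodes the actin-binding protein transgelin, read 1.17 and 1.22 in RagKO silica, 2.30 and 2.06 in RagKO saline, -0.38 and -0.59 in WT silica and -0.97 and -0.91 in WT saline. Its RagKO arrays were all above its WT arrays, and the silica effect was -0.98 in RagKO (adjusted p = 0.000384) and 0.46 in WT (adjusted p = 0.0259). Calponin 1 (Cnn1), a regulator of smooth muscle contraction, was at 3.42 and 3.65 in RagKO silica, 4.23 and 4.35 in RagKO saline, 2.33 and 2.51 in WT silica and 2.05 and 1.88 in WT saline. The groups again did not overlap, and the silica effect was -0.75 in RagKO (adjusted p = 0.0019) and 0.46 in WT (adjusted p = 0.031).

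Acta2, the smooth muscle alpha-actin, was at 0.94 and 0.87 in RagKO silica, 1.86 and 1.70 in RagKO saline, 0.00 and -0.32 in WT silica and -0.54 and -0.52 in WT saline. It fell with silica in RagKO by 0.87 (adjusted p = 0.000912), while the difference of 0.37 in WT did not pass (adjusted p = 0.0691) except without WT silica replicate 2 (0.53, adjusted p = 0.038). Tpm2, a tropomyosin, read 0.29 and 0.27 in RagKO silica, 1.20 and 0.92 in RagKO saline, -0.89 and -0.89 in WT silica and -1.30 and -1.39 in WT saline, without overlap between groups. The regulatory light chain gene Myl9, whose promoter is shown above, read 1.05 and 1.17 in RagKO silica, 1.59 and 1.76 in RagKO saline, -0.20 and -0.13 in WT silica and -0.84 and -0.80 in WT saline. Silica lowered Myl9 by 0.57 in RagKO (adjusted p = 0.00388) and raised it by 0.65 in WT (adjusted p = 0.00324).

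Mylk, the gene of the kinase that acts on that light chain, had the largest difference between genotypes among the 47 genes that was upward, 3.18 after saline (9.05-fold, SE 0.11, limma adjusted p = 2.03e-08). It read 2.19 and 2.16 in RagKO silica, 2.33 and 2.12 in RagKO saline, -0.30 and -0.32 in WT silica and -1.00 and -0.90 in WT saline. The RagKO groups overlapped, with a silica effect of -0.05 (adjusted p = 0.752), whereas silica raised Mylk by 0.65 in WT (adjusted p = 0.00349). Actg2, the gamma-actin of visceral smooth muscle, read 1.88 and 1.64 in RagKO silica, 2.48 and 1.94 in RagKO saline, 0.80 and 0.59 in WT silica and 0.74 and 0.79 in WT saline. Only its genotype differences passed among the comparisons run, at 1.07 after silica and 1.45 after saline. Without RagKO saline replicate 2, Actg2 also passed for silica in RagKO (-0.72, adjusted p = 0.0119) and its silica effects differed between genotypes (-0.64, adjusted p = 0.049). Des encodes desmin, the intermediate filament of smooth and striated muscle. It lay between 0.20 and 0.36 in RagKO silica and between -0.22 and 0.00 on the other 6 arrays, and passed only after silica between genotypes (0.38, adjusted p = 0.0119). That call for Des was lost without RagKO silica replicate 1 (0.30, adjusted p = 0.0691).

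In WT mice the silica calls of Cnn1, Tagln and Tpm2 depended on single arrays. Without WT saline replicate 2 the WT silica effect was 0.37 for Cnn1 (adjusted p = 0.224), 0.49 for Tagln (adjusted p = 0.113) and 0.41 for Tpm2 (adjusted p = 0.167). All 3 also lost the call without WT saline replicate 1, Tagln and Tpm2 without WT silica replicate 1, and Cnn1 and Tpm2 without WT silica replicate 2. The WT call of Cnn1 was also lost after quantile normalization (0.25, adjusted p = 0.24) and with a trended prior (adjusted p = 0.0581). Those of Myh11, Myl9 and Mylk held without any one array, as did the 6 smooth muscle calls for silica in RagKO.

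**Figure D1:**
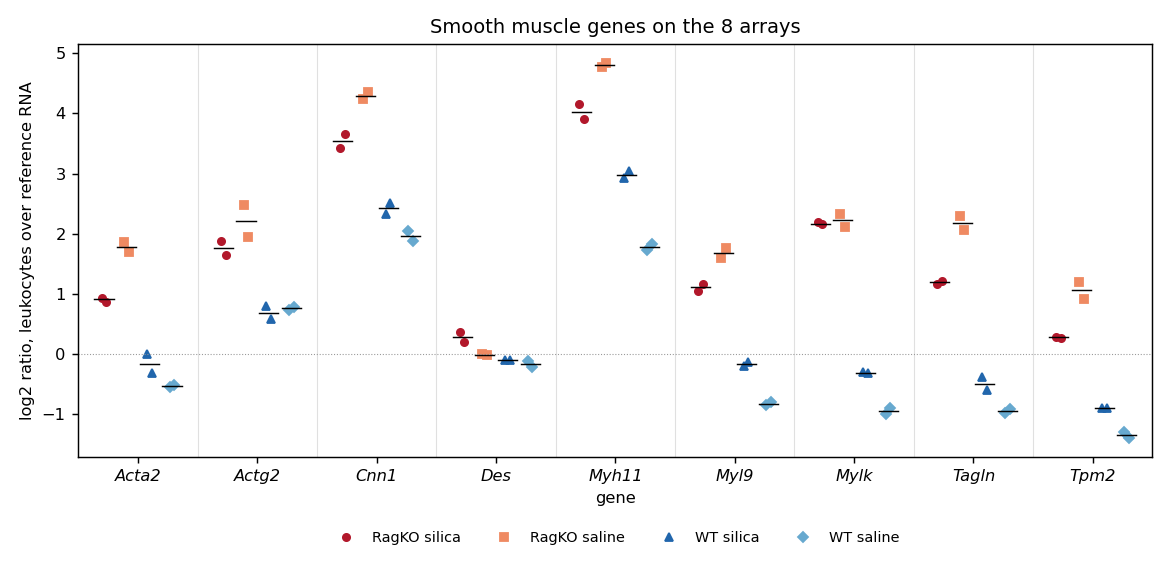
Log2 ratio of leukocyte RNA over reference RNA for the 9 smooth muscle genes. Points are single arrays, 2 per group, and short lines are group means. For Myh11 the RagKO silica arrays lie at 4.15 and 3.91, below the RagKO saline arrays and above all 4 WT arrays.

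The cardiac genes did not move as 1 group. Silica lowered 7 of 9 in RagKO mice (median -0.48), against 15.9% of all genes. In WT mice it raised Myh7 and Tnni3 and lowered Myl4 (median -0.02), against 11.5% raised and 8.21% lowered. After saline 6 of 9 were higher in RagKO than in WT and 1 was lower (median 0.56), against 37% and 29.2%. After silica 1 was higher and 4 were lower (median -0.11), against 33.7% and 26.4%. The RagKO silica effect was below the WT silica effect for 6 of 9 and above it for Myl4, against 12.3% and 11%.

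Myl7 encodes the regulatory myosin light chain of the atria. It read 1.66 and 1.74 in RagKO silica, 4.00 and 3.96 in RagKO saline, 2.30 and 2.18 in WT silica and 2.41 and 2.67 in WT saline. The RagKO saline arrays were above all others and the RagKO silica arrays below all others. Its fall with silica in RagKO was 4.84-fold (log2 difference -2.28, SE 0.12, limma adjusted p = 5.23e-06), the largest silica effect in either genotype among the 47 genes. In WT the silica effect was -0.30 (adjusted p = 0.103). RagKO was lower than WT after silica (-0.54, adjusted p = 0.00291) and higher after saline (1.44, adjusted p = 2.92e-06).

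Myh7, the slow or beta myosin heavy chain of heart and slow skeletal muscle, went differently from Myl7. Its ratios were 3.48 and 2.98 in RagKO silica, 3.63 and 3.52 in RagKO saline, 2.32 and 3.24 in WT silica and 0.79 and 0.82 in WT saline. The WT saline arrays stood well below the other 6, and the WT silica arrays differed from each other more than those of any other group. Silica raised Myh7 by 1.97 in WT (3.92-fold, SE 0.25, adjusted p = 0.000808), and the difference of -0.35 in RagKO did not pass (adjusted p = 0.316). The difference between the silica effects, -2.32 (SE 0.36, adjusted p = 0.00158), was the largest among the 47 genes. It became -1.86 without WT silica replicate 2, smaller than the values of Myl7 and Myh11 with all arrays, and -2.78 without WT silica replicate 1. RagKO exceeded WT by 2.77 after saline, and by 0.45 after silica, which did not pass (adjusted p = 0.153). That last value rested on single arrays: it was -0.01 without WT silica replicate 1 (adjusted p = 0.958), 0.91 without WT silica replicate 2 (adjusted p = 0.00353), 0.20 without RagKO silica replicate 1 (adjusted p = 0.595) and 0.70 without RagKO silica replicate 2 (adjusted p = 0.0818). Myh7 shares much of its coding sequence with the alpha heavy chain gene Myh6, which was not analysed here, and the probe's sequence is not given in the sources used here.

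Actc1, the cardiac alpha-actin, read 1.71 and 1.70 in RagKO silica, 3.05 and 2.57 in RagKO saline, 0.48 and 0.24 in WT silica and -0.05 and -0.02 in WT saline. Its groups did not overlap, and it followed the order of the smooth muscle genes: -1.11 with silica in RagKO (adjusted p = 0.00071) and 0.39 in WT, which did not pass (adjusted p = 0.108) except without either RagKO saline array (adjusted p = 0.0431). RagKO exceeded WT by 1.35 after silica and 2.85 after saline. The actin genes Acta1, Acta2, Actc1, Actg1 and Actg2 are close in sequence, so how far their probes share signal was not tested.

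Myl4, the essential light chain of atrial and embryonic muscle, was lower in RagKO than in WT after both exposures. It read -0.43 and -0.40 in RagKO silica, 0.46 and 0.51 in RagKO saline, 0.11 and 0.12 in WT silica and 1.51 and 1.51 in WT saline. RagKO was lower after silica (-0.53, adjusted p = 0.00111) and after saline (-1.02, adjusted p = 9.25e-06). Silica lowered Myl4 in both genotypes, by 0.90 in RagKO (adjusted p = 0.000203) and by 1.40 in WT (2.63-fold, adjusted p = 4.67e-05). It was the only member of the 47 that silica lowered in WT, and the only one that fell in both genotypes.

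The troponin and hormone genes changed less. Tnnt2, cardiac troponin T, read -0.67 and -0.72 in RagKO silica, -0.16 and 0.14 in RagKO saline, -0.94 and -0.96 in WT silica and -0.97 and -0.85 in WT saline. The RagKO saline arrays were highest, the RagKO silica arrays came next, and the WT groups overlapped. Silica lowered Tnnt2 in RagKO by 0.69 (adjusted p = 0.00244). Tnni3, cardiac troponin I, read 0.29 and 0.05 in RagKO silica, 0.62 and 0.68 in RagKO saline, 0.63 and 0.52 in WT silica and 0.05 and 0.12 in WT saline. Its silica effect was -0.48 in RagKO (adjusted p = 0.0111) and 0.49 in WT (adjusted p = 0.0171). Nppa, the gene of atrial natriuretic peptide, read -0.12 and -0.06 in RagKO silica, 0.16 and 0.15 in RagKO saline, 0.59 and 0.68 in WT silica and 0.43 and 0.37 in WT saline. Its only call between 2 groups was a lower level in RagKO than in WT after silica (-0.73, adjusted p = 0.000176), and its difference of -0.24 after saline did not pass (adjusted p = 0.0569).

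Myl3, the ventricular essential light chain, read -0.54 and -0.63 in RagKO silica, -0.02 and -0.21 in RagKO saline, -0.75 and -0.57 in WT silica and -0.48 and -0.28 in WT saline. Mybpc3, cardiac myosin-binding protein C, had -2.43 and -2.34 in RagKO silica, -1.98 and -1.86 in RagKO saline, -2.16 and -2.39 in WT silica and -2.24 and -2.27 in WT saline. Both fell by 0.47 with silica in RagKO, where the RagKO groups did not overlap. The call of Myl3 was lost without RagKO saline replicate 1 (adjusted p = 0.0953) or RagKO silica replicate 2 (adjusted p = 0.068), and that of Mybpc3 without RagKO silica replicate 1 (adjusted p = 0.0661) or RagKO saline replicate 2 (adjusted p = 0.0594). The excess of Mybpc3 in RagKO after saline, 0.34, was lost without RagKO saline replicate 2 (adjusted p = 0.113), WT saline replicate 1 (0.0924) or WT saline replicate 2 (0.117), and after median centring (adjusted p = 0.0647) or quantile normalization (0.069). Tnni3 lost its RagKO silica call without RagKO silica replicate 2 (adjusted p = 0.0628). Its WT silica call was lost without either WT saline array or WT silica replicate 1 (highest adjusted p = 0.122), and its genotype call after silica without RagKO silica replicate 2 (adjusted p = 0.0917) or WT silica replicate 1 (adjusted p = 0.0699).

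**Figure D2:**
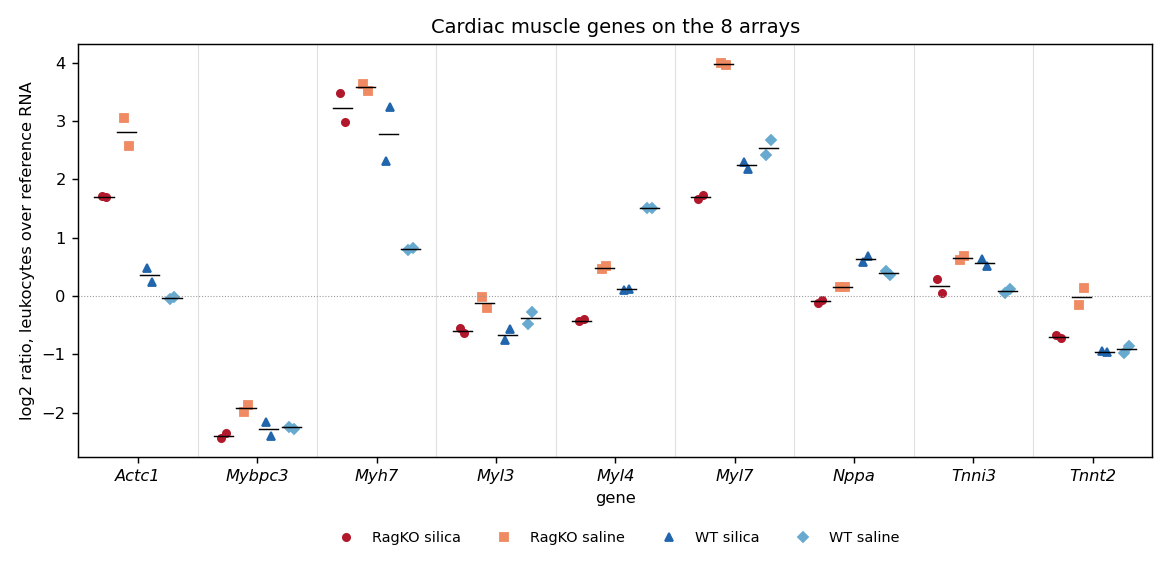
Log2 ratio of leukocyte RNA over reference RNA for the 9 cardiac genes. Points are single arrays, 2 per group, and short lines are group means. Myl7 is lowest in RagKO silica (1.66 and 1.74), Myh7 is lowest in WT saline (0.79 and 0.82), and Myl4 is highest in WT saline (1.51 on both arrays).

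Among the 12 genes of skeletal or general striated muscle, differences were smaller. After silica 3 were higher in RagKO than in WT and 0 lower (median 0.09), against 33.7% and 26.4% of all genes. After saline 7 were higher and 1 was lower (median 0.44), against 37% and 29.2%. Silica lowered 4 and raised 1 in RagKO (median -0.31), against 15.9% and 16.8%. It raised 1 in WT (median -0.06), against 11.5%. Mylk2, Tnnc2 and Tnni2 passed in none of the comparisons with all arrays. Tnnc2 passed in all 5 without WT silica replicate 2 (highest adjusted p = 0.0486) and in 2 without WT silica replicate 1, and Mylk2 for silica in RagKO without RagKO saline replicate 2 (-0.49, adjusted p = 0.019).

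Acta1, the skeletal alpha-actin, read 0.37 and 0.32 in RagKO silica, 1.11 and 1.60 in RagKO saline, -0.27 and -0.74 in WT silica and -0.66 and -0.48 in WT saline. Its RagKO arrays were all above its WT arrays, the WT groups overlapped, and silica lowered it in RagKO by 1.01 (adjusted p = 0.00296). Myh8, the perinatal myosin heavy chain, read 0.11 and 0.31 in RagKO silica, 0.40 and 0.49 in RagKO saline, 0.45 and 0.20 in WT silica and -0.43 and -0.38 in WT saline. As with Myh7, its WT saline arrays were below the other 6, and silica raised it in WT by 0.73 (adjusted p = 0.00326).

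Myom3, an M-band protein gene, read 1.40 and 1.15 in RagKO silica, 1.57 and 1.49 in RagKO saline, 0.87 and 0.46 in WT silica and 0.43 and 0.24 in WT saline. It was higher in RagKO by 0.61 after silica (adjusted p = 0.00592) and by 1.20 after saline (adjusted p = 6.06e-05), and the first of these calls was lost without WT silica replicate 2 (adjusted p = 0.0534). Its relative Myom1, averaged over 2 probes, read 0.56 and 0.81 in RagKO silica, 0.71 and 0.78 in RagKO saline, 0.43 and 0.35 in WT silica and 0.07 and 0.12 in WT saline. The probes of Myom1 disagreed: on one, silica in WT gave 0.73 (adjusted p = 0.00125 across probes), and on the other -0.14 (adjusted p = 0.521). Its genotype call after silica (0.29, adjusted p = 0.0479) was lost in 7 of the 8 fits that left out an array, those without either RagKO saline, either WT saline or either WT silica array or without RagKO silica replicate 2 (highest adjusted p = 0.274). It was also lost under every alternative that kept all arrays except quantile normalization.

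Smaller calls concerned Myl1, Actn3, Myom2 and Tnnt1, genes of skeletal muscle light chain, alpha-actinin, M-band protein and troponin T, and Ryr1, the calcium release channel. Silica lowered Myl1 by 0.90, Actn3 by 0.46 and Myom2 by 0.41 in RagKO. All 3 calls were lost without RagKO saline replicate 1 (adjusted p 0.0849, 0.0811 and 0.0712 in that order), and without RagKO silica replicate 1 (Myl1 and Actn3) or 2 (Myom2). Ryr1 was the exception in direction: it was lower in RagKO after saline (-0.70, adjusted p = 0.00102) and rose with silica in RagKO by 0.42 (adjusted p = 0.0367). That rise was lost without either RagKO saline array, either WT saline array or RagKO silica replicate 1 (highest adjusted p = 0.198), and when genes with missing values were allowed (0.25, adjusted p = 0.252). After saline, Myl1 was higher in RagKO by 0.85 and Tnnt1 by 0.37. Those calls were lost without RagKO saline replicate 1 (Myl1, adjusted p = 0.0558), and without RagKO saline replicate 2 or either WT saline array (Tnnt1, highest adjusted p = 0.0825).

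The 17 non-muscle and broadly expressed members went both ways. After silica 4 were higher and 7 lower in RagKO than in WT (median -0.03), against 33.7% and 26.4% of all genes. After saline 6 were higher and 6 lower (median -0.09). These saline shares, 35.3% each, were near the 37% and 29.2% of all genes. Silica raised 4 and lowered 2 in RagKO (median -0.02), against 16.8% and 15.9%. It raised 5 in WT (median 0.16), against 11.5%. Actn1, Myl12a and Ryr3 passed in none of the comparisons with all arrays.

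Myh9, the heavy chain of non-muscle myosin IIA that is abundant in leukocytes, had the largest genotype difference of all 47 genes. It read -0.14 and -0.58 in RagKO silica, -1.15 and -1.57 in RagKO saline, 2.89 and 2.74 in WT silica and 2.53 and 2.38 in WT saline. Every WT array was above every RagKO array. RagKO was 9.02-fold lower after silica (log2 difference -3.17, SE 0.17, limma adjusted p = 4.84e-07) and 14-fold lower after saline (-3.81, SE 0.17, adjusted p = 9.57e-08). Silica raised Myh9 by 1.00 in RagKO (adjusted p = 0.00217), and the difference of 0.37 in WT did not pass (adjusted p = 0.169).

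Tagln2, the transgelin of leukocytes and other non-muscle cells, read 0.92 and 0.88 in RagKO silica, 0.00 and 0.19 in RagKO saline, 1.89 and 2.02 in WT silica and 1.29 and 1.22 in WT saline. Its groups did not overlap, RagKO was lower after both exposures (-1.06 after silica and -1.15 after saline), and silica raised it in RagKO by 0.81 (adjusted p = 0.00071) and in WT by 0.71 (adjusted p = 0.00235). Cnn2, a calponin of non-muscle cells, read 0.02 and -0.37 in RagKO silica, -0.31 and -0.60 in RagKO saline, 0.54 and 0.64 in WT silica and 0.75 and 0.86 in WT saline. It was lower in RagKO after silica (-0.77, adjusted p = 0.0014) and after saline (-1.26, adjusted p = 3.63e-05). After saline, Myh9 (-3.81), Tagln2 (-1.15) and Cnn2 (-1.26) thus differed between genotypes in the opposite direction from the smooth muscle genes Myh11 (3.02), Tagln (3.12) and Cnn1 (2.33). Other non-muscle members of the same families differed in the same direction as the smooth muscle genes: Cnn3 by 1.16, Myh14 by 0.70 and Myh10 by 0.36.

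Actg1, the cytoplasmic gamma-actin, rose with silica in both genotypes. Its ratios were 1.68 and 1.34 in RagKO silica, 0.08 and 0.36 in RagKO saline, 0.45 and 0.50 in WT silica and -0.05 and -0.13 in WT saline. Silica raised it by 1.29 in RagKO (2.45-fold, adjusted p = 0.000192) and by 0.56 in WT (adjusted p = 0.0204), and the WT call was lost without any 1 of the 4 WT arrays (highest adjusted p = 0.129). Tpm4, a cytoskeletal tropomyosin, averaged -0.07 in RagKO silica, -0.26 in RagKO saline, 0.56 in WT silica and -0.26 in WT saline, and rose with silica in WT (0.82, adjusted p = 0.00176). Myh14, the heavy chain of non-muscle myosin IIC, averaged 2.89 in RagKO silica, 2.83 in RagKO saline, 3.60 in WT silica and 2.14 in WT saline. Silica raised Myh14 2.76-fold in WT (1.46, adjusted p = 0.000995), and RagKO was lower than WT after silica (-0.71) and higher after saline (0.70). Those genotype calls were lost without RagKO silica replicate 2 or WT silica replicate 2 (highest adjusted p = 0.0946) and without RagKO saline replicate 2 (adjusted p = 0.0575).

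Tpm1 and Tpm3 were each read by 2 probes that disagreed. Tpm1 averaged over both was -0.83 and -0.93 in RagKO silica, -0.61 and -0.50 in RagKO saline, -1.57 and -1.73 in WT silica and -1.75 and -1.79 in WT saline. Silica in RagKO gave -0.79 on one Tpm1 probe (adjusted p = 0.00108 across probes) and 0.15 on the other (adjusted p = 0.361). The averaged value, -0.32, passed narrowly (adjusted p = 0.048) and was lost without any one of the 4 RagKO arrays or the 2 WT saline arrays (highest adjusted p = 0.16). For Tpm3 the genotype difference after silica was -0.92 on one probe and 0.52 on the other, and both passed (adjusted p = 8.2e-05 and 0.00263). Tpm1 and Tpm3 make many transcript forms, and which form each probe reads is not given in the sources used here.

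Myl12b, a non-muscle regulatory light chain, read 0.85 and 0.82 in RagKO silica, 1.04 and 0.90 in RagKO saline, 0.15 and -0.07 in WT silica and -0.07 and -0.14 in WT saline. It was higher in RagKO after silica (0.79, adjusted p = 0.00022) and saline (1.07, adjusted p = 1.91e-05), with all RagKO arrays above all WT arrays, while its close relative Myl12a passed in neither. Myl6, a light chain of smooth muscle and non-muscle myosin, was higher in RagKO after saline (0.84, adjusted p = 0.000895), and its relative Myl6b was lower after silica (-0.74) and after saline (-0.96). Myh10, the heavy chain of non-muscle myosin IIB, was higher in RagKO after silica (0.39, adjusted p = 0.0103) and after saline (0.36, adjusted p = 0.0135). Both Myh10 calls were lost after quantile normalization (adjusted p = 0.116 and 0.0847), and the saline one without WT saline replicate 2 (adjusted p = 0.14). Cnn3, a calponin of broad expression, was higher in RagKO by 1.16 after saline (adjusted p = 5.41e-05) and fell with silica in RagKO by 0.64 (adjusted p = 0.0084). Actn4, a non-muscle alpha-actinin, was lower in RagKO after silica (-0.53) and after saline (-0.40), and rose with silica in WT by 0.51. Each of these Actn4 calls was lost without at least 1 array, with the highest adjusted p at 0.0588 without RagKO silica replicate 2, 0.186 without RagKO saline replicate 2 and 0.184 without WT saline replicate 1.

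Actn1, the alpha-actinin of non-muscle and smooth muscle cells, read -0.71 and -0.54 in RagKO silica, -0.64 and -0.58 in RagKO saline, -0.68 and -0.50 in WT silica and -0.56 and -0.44 in WT saline. All pairs of groups but the saline groups overlapped, and its differences lay between -0.10 and 0.07 in all 5 comparisons. Ryr3, a calcium release channel gene, had the widest spread, with -2.04 and 0.34 in RagKO silica. Without RagKO silica replicate 1 its silica effect in RagKO was 0.86 (adjusted p = 0.0404), against -0.33 with all arrays (adjusted p = 0.684).

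**Figure D3:**
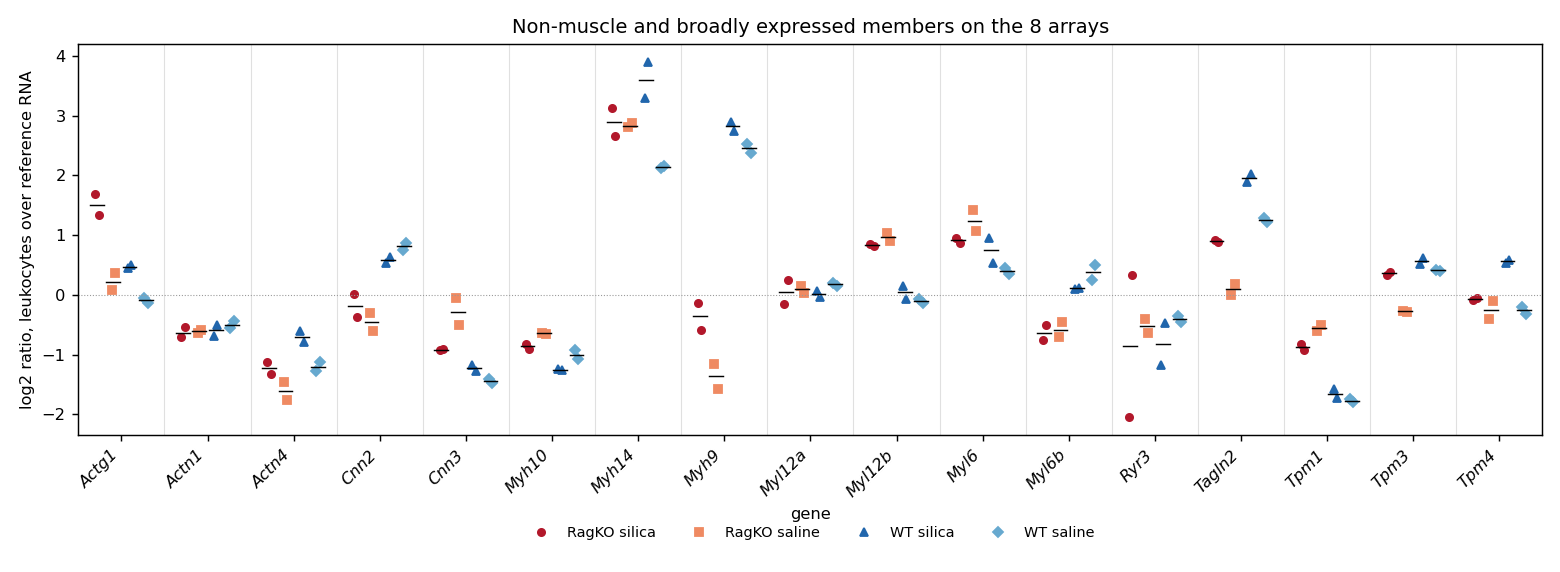
Log2 ratio of leukocyte RNA over reference RNA for the 17 non-muscle and broadly expressed genes. Points are single arrays, 2 per group, and short lines are group means. For Myh9 all 4 RagKO arrays lie between -1.57 and -0.14 and all 4 WT arrays between 2.38 and 2.89.

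The silica effects of the 2 genotypes were compared by the difference between them. It was below 0 and passed for 7 of 9 smooth muscle genes (median of all 9 -1.22), 6 of 9 cardiac genes (median -0.65), 2 of 12 striated genes (median -0.31) and 3 of 17 non-muscle genes (median 0.07). Over all genes its median was 0.00, and it passed below 0 for 12.3% and above 0 for 11%. It was above 0 and passed for Myl4, Ryr1, Actg1 and Tpm3. The calls of Acta1, Actg1, Cnn3, Myl4, Mylk, Nppa, Ryr1, Tnnt2, Tpm3 and Tpm4 were each lost without at least 1 array, and the other 12 of 22 held without any one array.

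**Figure D4:**
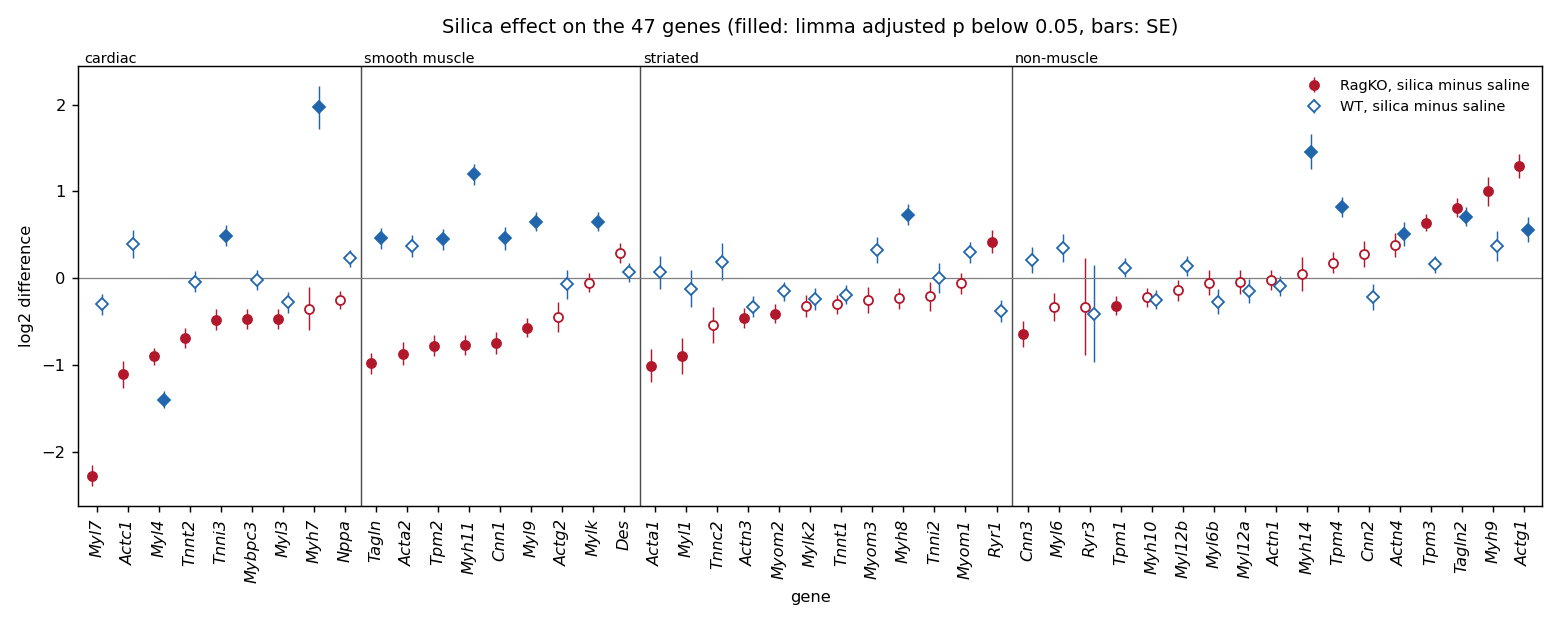
Log2 difference, silica minus saline, of each of the 47 genes in RagKO (circles) and in WT (diamonds). Bars are SE from limma over 2 arrays per group, and filled symbols passed an adjusted p of 0.05. Among the smooth muscle genes 6 lie below 0 and filled for RagKO, and 6 above 0 and filled for WT.

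**Figure D5:**
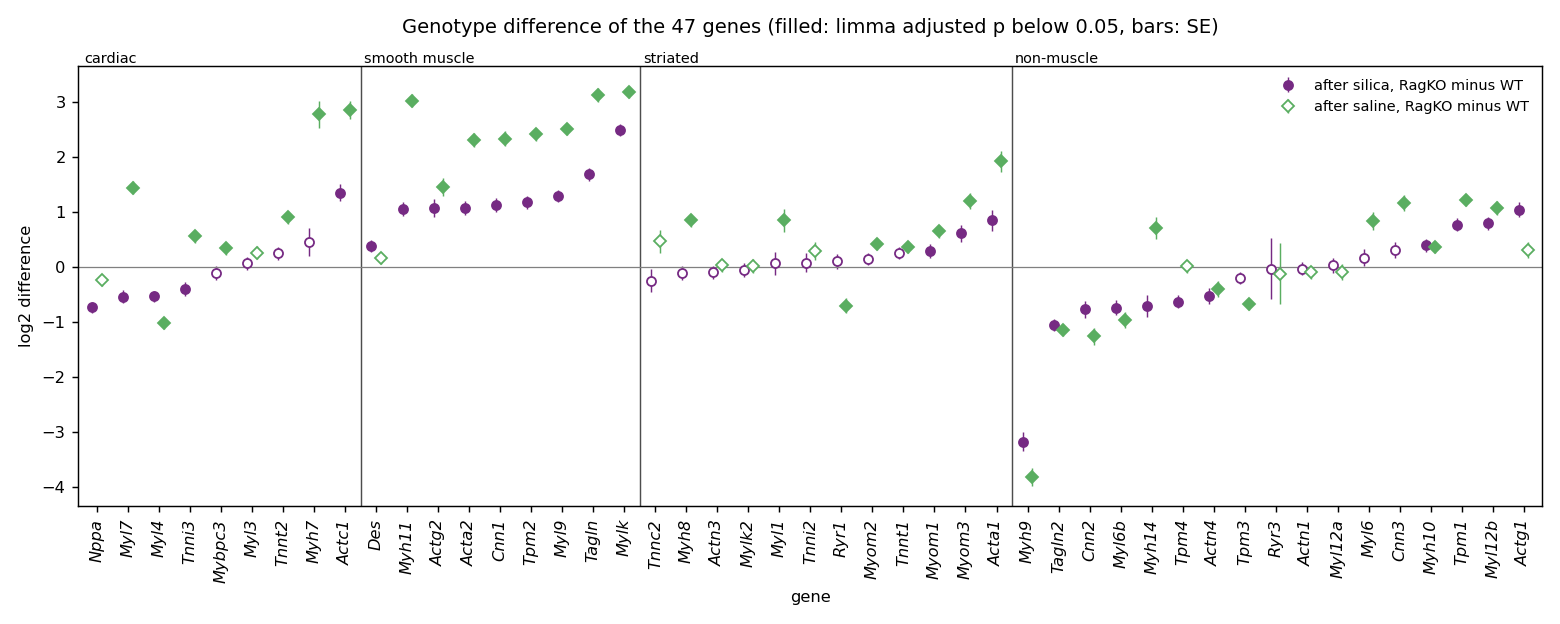
Log2 difference, RagKO minus WT, of each of the 47 genes after silica (circles) and after saline (diamonds). Bars are SE from limma over 2 arrays per group, and filled symbols passed an adjusted p of 0.05. All 9 smooth muscle genes lie above 0 after both exposures, and Myh9 is lowest at -3.17 and -3.81.

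Muscle genes outside the symbol families were counted in the same fit. Of 17 further smooth muscle genes, RagKO exceeded WT for 6 after silica, a share near the 33.7% of all genes. Only 1 was lower, against 26.4%. After saline 11 were higher and 1 was lower, against 37% and 29.2%. Silica lowered 5 of the 17 in RagKO, against 15.9% of all genes, and raised 8 in WT, against 11.5%. The difference between the silica effects passed below 0 for 8 of them, against 12.3%, and above 0 for 0, against 11%. Itga8, an integrin chain of smooth muscle and other mesenchymal cells, read 4.10 and 4.85 in RagKO silica, 5.78 and 5.67 in RagKO saline, 3.16 and 3.24 in WT silica and 2.12 and 2.16 in WT saline. Its silica effect was -1.25 in RagKO (adjusted p = 0.00131) and 1.06 in WT (adjusted p = 0.00496), the same order of groups as Myh11. Pdlim3, an actin-associated protein gene, changed by -0.67 in RagKO and 0.74 in WT. Nexn, which encodes the actin-binding protein nexilin, fell in RagKO (-0.64, adjusted p = 0.00491), and its difference of -0.19 in WT did not pass (adjusted p = 0.335).

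Of 13 measured striated muscle genes outside the families, RagKO exceeded WT for 8 after silica and was lower for 2, against 33.7% and 26.4% of all genes. After saline 8 were higher and 1 was lower, against 37% and 29.2%. Silica lowered 5 in RagKO, against 15.9% of all genes. In WT it raised 1 and lowered 1, against 11.5% and 8.21%. Cox6a2, the heart and skeletal muscle form of a cytochrome oxidase subunit, read -0.09 and 0.11 in RagKO silica, 1.34 and 0.84 in RagKO saline, -0.60 and -0.29 in WT silica and -1.01 and -1.06 in WT saline. It fell by 1.08 in RagKO (adjusted p = 0.00138) and rose by 0.59 in WT (adjusted p = 0.0356). Cox7a1 also fell in RagKO (-0.69, limma adjusted p = 0.00125), and its difference of -0.3 in WT did not pass (adjusted p = 0.0754). Pgam2 went another way, falling in both RagKO (-0.83, adjusted p = 0.00245) and WT (-0.6, adjusted p = 0.019). Cav3, the muscle caveolin, fell by 0.61 in RagKO (adjusted p = 0.00305). Srf, the gene of serum response factor itself, was lower in RagKO after silica (-0.83, adjusted p = 0.000921) and after saline (-0.39, adjusted p = 0.0416), and its silica effects of -0.08 in RagKO and 0.36 in WT did not pass. Of this factor, its cofactors and other muscle transcription factors, 10 genes were measured. After saline 3 of the 10 were higher and 5 lower in RagKO than in WT, against 37% and 29.2% of all genes. After silica 1 was higher and 5 were lower, against 33.7% and 26.4%. Silica raised 4 of the 10 in RagKO, against 16.8% of all genes. In WT it raised 3 and lowered 1, against 11.5% and 8.21%.

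Markers of other cells in the lung moved on the same arrays. The mean log2 ratio of 8 epithelial markers was 1.95 and 1.78 in RagKO silica, 2.20 and 2.22 in RagKO saline, 1.79 and 1.97 in WT silica and 1.01 and 1.11 in WT saline. Silica in WT raised 5 of the 8 and lowered 1, against 11.5% and 8.21% of all genes. The WT rise of smooth muscle genes thus coincided with a rise of epithelial transcripts. Silica in RagKO lowered 3 of the 8 and raised 0, against 15.9% and 16.8%. After saline 5 were higher and 2 lower in RagKO than in WT (median 1.36), against 37% and 29.2%. After silica 4 were higher and 3 lower (median 0.19), against 33.7% and 26.4%. The difference between the silica effects was below 0 and passed for 6 (median -1.41), against 12.3%. Fibroblast markers (7 measured of 8) averaged 0.53 and 0.22 in RagKO silica, 0.17 and 0.20 in RagKO saline, 0.61 and 0.26 in WT silica and -0.21 and -0.24 in WT saline. In RagKO silica raised 3 of these fibroblast markers and lowered 4, against 16.8% and 15.9% of all genes. In WT it raised 5, against 11.5%. Between genotypes, 4 of these fibroblast markers were higher and 3 lower in RagKO after saline (median 1.32), against 37% and 29.2%. After silica 2 were higher and 3 lower (median -0.53), against 33.7% and 26.4%. Mesothelial markers (5 of 5) averaged -0.75 and -0.59 in RagKO silica and 0.15 and 0.19 in RagKO saline. In WT they averaged -0.83 and -0.95 after silica and -0.93 and -0.97 after saline. Mesothelial and epithelial markers, and the platelet markers given below, were on average highest in RagKO saline, like Myl7. Unlike Myl7, none of these lists was lowest in RagKO silica.

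Pericyte markers (5 of 8) averaged 0.59 and 0.44 in RagKO silica, 0.47 and 0.51 in RagKO saline, 0.84 and 0.63 in WT silica and 0.33 and 0.50 in WT saline. Platelet markers (4 of 9) averaged 0.94 and 0.93 in RagKO silica, 1.42 and 1.45 in RagKO saline, 0.41 and 0.36 in WT silica and 0.59 and 0.51 in WT saline. All 4 platelet markers were higher in RagKO than in WT after saline, against 37% of all genes, and 3 after silica, against 33.7%. Silica lowered 2 of them in RagKO, against 15.9%, and 1 in WT, against 8.21%. Endothelial markers (8 of 8) averaged 3.06 and 3.02 in RagKO silica, 2.94 and 3.15 in RagKO saline, 3.27 and 3.36 in WT silica and 2.97 and 2.95 in WT saline. Silica in WT raised 5 of the 8 endothelial markers and lowered 1 (median 0.48), against 11.5% and 8.21% of all genes. Thus more endothelial markers rose than fell with silica in WT, where smooth muscle genes rose. Between genotypes they went both ways. After saline 3 were higher and 3 lower in RagKO than in WT, against 37% and 29.2%. After silica 2 were higher and 4 lower, against 33.7% and 26.4%. T cell markers (3 of 4) averaged between -1.16 and -0.97 on the RagKO arrays and between 2.38 and 2.58 on the WT arrays, and B cell markers (2 of 4) between -2.11 and -1.49 against 2.98 and 3.83. Myh9, Tagln2 and Cnn2 were lower on the same RagKO arrays as these lymphocyte markers. Of all 17 non-muscle members, 6 were lower and 6 higher in RagKO after saline. The part of any of these cell types, of the 28S probe or of sex in the results on contractile genes was not tested.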

How the data were processed

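RNA of 8 samples was hybridised to 2-colour Agilent arrays, with leukocyte RNA in Cy5 and the reference in Cy3 throughout, per the labels. The deposited table gives, for each of 16251 probes, a log10 ratio on every array; the sign follows the labels' dyes and positive means more leukocyte signal. The base was inferred: as log10 the largest ratio is 736.6-fold, as log2 it would be 7.3-fold, and then each difference would shrink by a factor of 3.3219 with the tests unaffected. How the authors corrected background, normalized dyes, centred or filtered the deposited values is unknown here, so dim probes could not be recognised and neither a dim-probe filter nor slides as blocks could be tried. Medians of the deposited log10 values ran between -0.0725 and -0.0521, and no further scaling was applied.

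Values were multiplied by 3.3219 to log2. Complete data existed for 14716 probes. The annotation named a single gene for 14488 of all probes, and those of one gene were averaged, leaving 11597 genes. A limma 3.58.1 model (R 4.3.3) of 4 group means over 8 arrays was fitted to all of them, p-values were adjusted by Benjamini-Hochberg with calls at 0.05, and the fit was tested on simulated data. Contrasts subtract saline from silica, WT from RagKO, or the silica effect of WT from that of RagKO. Members, gene lists and tests were chosen with earlier results of these data known. Every member could be named; array values are given for well-known members and for up to 4 more per role by smallest p, and other genes come from the muscle and marker lists, up to 4 each by smallest p, plus Srf. Xist, Eif2s3y and Rn28s1 were chosen after their values were seen. Alternatives were median centring, quantile normalization, replicate number as a block, the probe with the highest mean, genes with missing values allowed, a trended prior, a fit of only the groups compared, and leaving out each array. Since replicates are not stated to be separate mice, p-values measure the spread between these arrays.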

Additional observations from a re-analysis of the deposited data

Results flagged for a closer look

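For 22 of the 47 genes the silica effect in RagKO mice and that in WT mice differed by the test of the difference itself (limma, adjusted p below 0.05), against 23.3% of all genes. The values are on the log2 scale, with the WT effect subtracted from the RagKO effect. Among cardiac genes they were -2.32 for Myh7, -1.97 for Myl7, -1.50 for Actc1, -0.97 for Tnni3, -0.65 for Tnnt2, -0.48 for Nppa and 0.49 for Myl4. Among smooth muscle genes they were -1.97 for Myh11, -1.44 for Tagln, -1.24 for Acta2, -1.24 for Tpm2, -1.22 for Myl9, -1.21 for Cnn1 and -0.70 for Mylk. Among striated genes they were -1.07 for Acta1, -0.96 for Myh8 and 0.80 for Ryr1. Among non-muscle genes they were -1.41 for Myh14, -0.85 for Cnn3, -0.64 for Tpm4, 0.48 for Tpm3 and 0.73 for Actg1.

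Myh7 and Myl7 differ in what lies behind their values. For Myh7 the WT effect was 1.97 and the RagKO effect -0.35, while for Myl7 the RagKO effect was -2.28 and the WT effect -0.30. Of the calls lost without a single array, Nppa and Tpm3 were lost whichever of the 8 arrays was left out (highest adjusted p = 0.154 without WT saline replicate 2 for Nppa, and 0.135 without WT saline replicate 1 for Tpm3). Myl4 was lost without any array but RagKO saline replicate 2 (highest adjusted p = 0.116). Tnnt2 (0.101) and Tpm4 (0.109) were lost without either WT saline array and 4 others, and Actg1 (0.0899) without 6 arrays. Acta1 (0.0576), Mylk (0.0587) and Ryr1 (0.058) were lost without WT saline replicate 1, and Acta1 also without RagKO saline replicate 2 (0.0511). Cnn3 (0.0534) was lost without WT saline replicate 2. The values in brackets are the highest adjusted p-values of limma.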

How the results depend on the processing

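Of 124 calls of a member in a comparison, 86 held under all 15 alternatives: 16 of 24 for silica in RagKO, 9 of 15 for silica in WT, 21 of 28 and 28 of 35 for genotype after silica and after saline, and 12 of 22 for the difference between the silica effects. The fit of only the groups compared does not apply to that difference. Leaving out 1 array changed the counts of members called as follows: silica in RagKO, 4 to 6 higher and 14 to 20 lower; silica in WT, 8 to 15 higher and 1 to 2 lower; genotype after silica, 16 to 17 higher and 9 to 11 lower; genotype after saline, 24 to 28 higher and 7 to 8 lower; difference, 0 to 4 higher and 13 to 19 lower. For silica in WT, the members called higher numbered 8 without either WT saline array and 9 without WT silica replicate 1, against 14. Other values of a member, not called in the main fit, passed when some array was left out. At least 1 of them, the difference for Myh9, also passed under an alternative that kept all arrays. After quantile normalization 3 members were called lower with silica in WT, against 1. Tpm1 in RagKO went to 0.15 on its probe with the highest mean, because that probe differs from the other. Ryr3 became 0.86 (silica in RagKO), 1.16 (genotype after silica) and 1.28 (difference) without RagKO silica replicate 1, and -1.52, -1.22 and -1.10 in that order without RagKO silica replicate 2, since its RagKO silica arrays were far apart. The replicate number as a block ended 2 calls, Myom1 between genotypes after silica (adjusted p = 0.0531) and Tpm1 for silica in RagKO (adjusted p = 0.0558), and added 6; deviations of same-numbered arrays correlated between groups with r from -0.073 to 0.111, so the numbers were not taken as pairing. With 2 arrays per group, and no background values, small differences on the log2 scale are at the limit of what can be called.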
